A study of Mus musculus with 12 samples.

Results

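In mouse cell cultures, 3 libraries labelled Glioblastoma were set against 9 libraries of 3 non-tumour cultures taken as a whole: NSC, Astrocytes and MIM-Astrocytes, with 3 libraries each. A gene was taken when all 3 Glioblastoma libraries lay above, or all lay below, each of the 9 others, so that the difference held against every non-tumour state. Of 16982 genes tested, 5099 lay above (30.0%) and 2562 lay below (15.1%). A gene is called higher or lower here when, besides that separation, limma with Benjamini-Hochberg adjustment over all tested genes gave an adjusted p under 0.05 against each of the 3 groups in the same direction. By that call 4685 genes were higher in Glioblastoma (27.6%) and 2309 were lower (13.6%).

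The series concerns metabolites of one-carbon metabolism and cell identity, and its 4 groups are described as primary cell lines of strain C57BL/6 mice. Glioblastoma is labelled as cerebella at age E18.5 (embryonic day), and the labels do not say how the tumour culture was made or grown. NSC are neural stem cells from the cortex at embryonic day 14.5, grown as floating spheres with EGF and FGF2 at 20 ng/mL. Astrocytes were kept in differentiation medium with 10% serum and came either from postnatal day 4 cortex sorted for the surface protein GLAST or from differentiated neurospheres; which of these was used is not stated, and their age label is E14.5. MIM-Astrocytes are astrocytes moved to MIM, a serum-free medium holding up to 6 metabolites (the amino acids methionine, cysteine, threonine and glycine, the polyamine putrescine, and S-adenosylmethionine) with FGF2 at 20 ng/mL, collected up to day 5. Tumour state, brain region, age and culture conditions therefore differ together between Glioblastoma and the 9 other libraries and cannot be told apart. In bulk RNA, fewer cells of a type and less RNA per cell cannot be told apart either.

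Glioblastoma is an aggressive glial tumour of the brain, and its cells share properties with neural stem cells and with astrocytes. Recurrent events in it fall on receptor tyrosine kinase signalling, on the p53 pathway and on the cyclin D and RB control of entry into the cell cycle. Tumour cells also draw on serine, glycine and folate metabolism to supply carbon units for nucleotides and methylation.

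Values are FPKM, fragments per kilobase of transcript scaled to the number of mapped fragments, estimated by the authors for each gene and library. Differences are in log2(FPKM + 1), Glioblastoma minus the other group, and understate the change of genes with low values. "Smallest difference" is the one against the nearest of the 3 groups, with its standard error (SE) from limma. The labels do not say whether replicate libraries are of independent cultures, so adjusted p-values measure only the spread between libraries. Read counts are not given and the depth is unknown; the authors' 95% intervals had a half-width of 8.56% to 10.7% of the value near 10 FPKM, and of 28.2% to 35.9% near 1 FPKM. Between 14461 and 14919 genes reached 1 FPKM per library, and the median coefficient of variation between libraries was 6.45% in Glioblastoma, 8.69% in NSC, 10.1% in Astrocytes and 8.63% in MIM-Astrocytes. FPKM summed to 812104, 882920 and 979106 in Glioblastoma, against 514728 to 812381 in the other libraries.

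The typical tested gene was 0.18 higher in Glioblastoma, as the median over genes of the mean of the 3 differences. Medians of lists are read beside that value, but the calls test for any difference and do not take it off. Higher genes made up 67.0% of the calls with FPKM as deposited, but 51.6% after median-of-ratios scaling, 54.0% after quantile normalization and 43.9% after scaling to a common total. The larger differences depended little on this choice. At least 2-fold against each of the 3 groups were 1087 higher genes (6.40%) and 555 lower genes (3.27%), of which 1078 and 555 were also called after median-of-ratios scaling and 1075 and 555 after common-total scaling. The lowest Glioblastoma value exceeded the highest of the 9 others at least 10-fold for 124 of 4685 higher genes, and the converse held for 152 of 2309 lower genes. These 2 counts leave out genes listed at 0 in every library of the lower side. Against single groups, 7611 genes were higher than in NSC (44.8%), 7983 than in Astrocytes (47.0%) and 7045 than in MIM-Astrocytes (41.5%). Lower were 4265 against NSC (25.1%), 5311 against Astrocytes (31.3%) and 4802 against MIM-Astrocytes (28.3%); all 3 comparisons share the Glioblastoma libraries. At the edge of the separation, Efnb1 just lay above, with 6.68 FPKM at the lowest in Glioblastoma and 6.68 FPKM at the highest elsewhere, and Psenen just lay below, at 32.4 FPKM on both sides. Prkacb (39.7 FPKM on both sides) and Bicdl1 (4.12 FPKM on both sides) just overlapped.

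The genes with the largest differences include some that were nearly silent on the lower side, such as Rab3b and Hoxd8, and some that were expressed on both sides, such as Apoe and Ccnd1. Among the 12 genes named as highest were Rab3b, a small GTPase of regulated secretion, Moxd1, a relative of dopamine beta-hydroxylase, Ddr2, a collagen receptor kinase, Trf, which encodes the iron carrier transferrin, and Ccnd1, which encodes cyclin D1, the activator of CDK4 and CDK6. Among the 12 named as lowest were Apoe, the main lipid carrier of the brain, Gja1, which encodes the astrocyte gap junction protein connexin 43, and the metallothioneins Mt1, Mt2 and Mt3, which bind zinc and copper.

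Rab3b (chr4:108879063-108943324, plus strand, GRCm38) had 127, 126 and 126 FPKM in the Glioblastoma libraries, against 0.0600 at the lowest, 0.269 at the median and 0.745 FPKM at the highest of the 9 others. The 3 tumour libraries were nearly equal and no other library reached 1 FPKM. The smallest difference was 6.42 ± 0.11 (SE), against NSC. Genes were tested when at least 3 libraries reached 1 FPKM. Of the genes named as highest, Rab3b, Moxd1, Clic5, Trib3, Chac1, Hoxd8 and Hoxa7 passed this filter only through Glioblastoma. Their direction was set by the filter. Moxd1 had 145, 141 and 149 FPKM in Glioblastoma, against 0.0244 to 0.777 FPKM elsewhere, where the NSC libraries were the highest. Ddr2 averaged 50.5 ± 3.16 FPKM in Glioblastoma and 0.260 ± 0.200, 1.28 ± 0.249 and 0.809 ± 0.183 FPKM in NSC, Astrocytes and MIM-Astrocytes (SD, n = 3 each). Trf had 110.3, 99.99 and 101 FPKM in Glioblastoma, against 0.767, 2.21 and 6.24 FPKM as the lowest, median and highest of the others. Cox6a2, a respiratory chain subunit best known from heart and muscle, averaged 64.0 ± 5.16 FPKM in Glioblastoma (SD, n = 3) and reached at most 2.60 FPKM in any other library. Clic5, a chloride intracellular channel family member, averaged 23.6 ± 0.646 FPKM in Glioblastoma (SD, n = 3) and reached at most 0.261 FPKM in any other library. The ribosomal protein gene Rpl21 was also among the highest, at 339.7, 413 and 386 FPKM in Glioblastoma against 3.38 to 9.95 FPKM elsewhere, but it has many near-identical processed copies in the genome and its value is uncertain.

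Apoe (chr7:19696109-19699188, minus strand) had 15.5, 17.0 and 16.6 FPKM in the Glioblastoma libraries, against 3293 FPKM at the lowest, 5312 at the median and 7971 at the highest of the 9 others. It was abundant in every non-tumour library and low in all 3 tumour libraries, with a smallest difference of -7.73 ± 0.12 (SE, against NSC; limma adjusted p at most 1.71e-11). Pla2g7, a secreted phospholipase that breaks down platelet-activating factor, had 1.21, 1.65 and 1.12 FPKM in Glioblastoma and 360.2 to 534 FPKM elsewhere. Gja1 had 0.976, 1.44 and 2.19 FPKM in Glioblastoma, against 98.9, 229.5 and 264 FPKM as the lowest, median and highest of the others.

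The metallothioneins were lower in Glioblastoma than in every other library, while the other cultures differed among themselves. Mt2 averaged 8.35 ± 0.629 FPKM in Glioblastoma, against 511 ± 66.3 in NSC, 5563 ± 733 in Astrocytes and 530.3 ± 40.4 FPKM in MIM-Astrocytes (SD, n = 3 each). Mt3, the metallothionein of the brain, averaged 6.96 ± 1.29 FPKM in Glioblastoma and 246 ± 18.05, 2835 ± 305 and 1629 ± 224 FPKM in the same order of the others. Serpinh1, the collagen chaperone HSP47, had 2.67, 2.93 and 3.07 FPKM in Glioblastoma and 115 to 208 FPKM elsewhere. Tmem132b, a membrane protein gene, had 0.107, 0.102 and 0.110 FPKM in Glioblastoma and 28.0 to 37.9 FPKM elsewhere. The protease gene Prss23 and the membrane protein gene Plekhb1 were the other named lower genes of this kind, with smallest differences of -5.54 and -4.95.

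**Figure D1:**
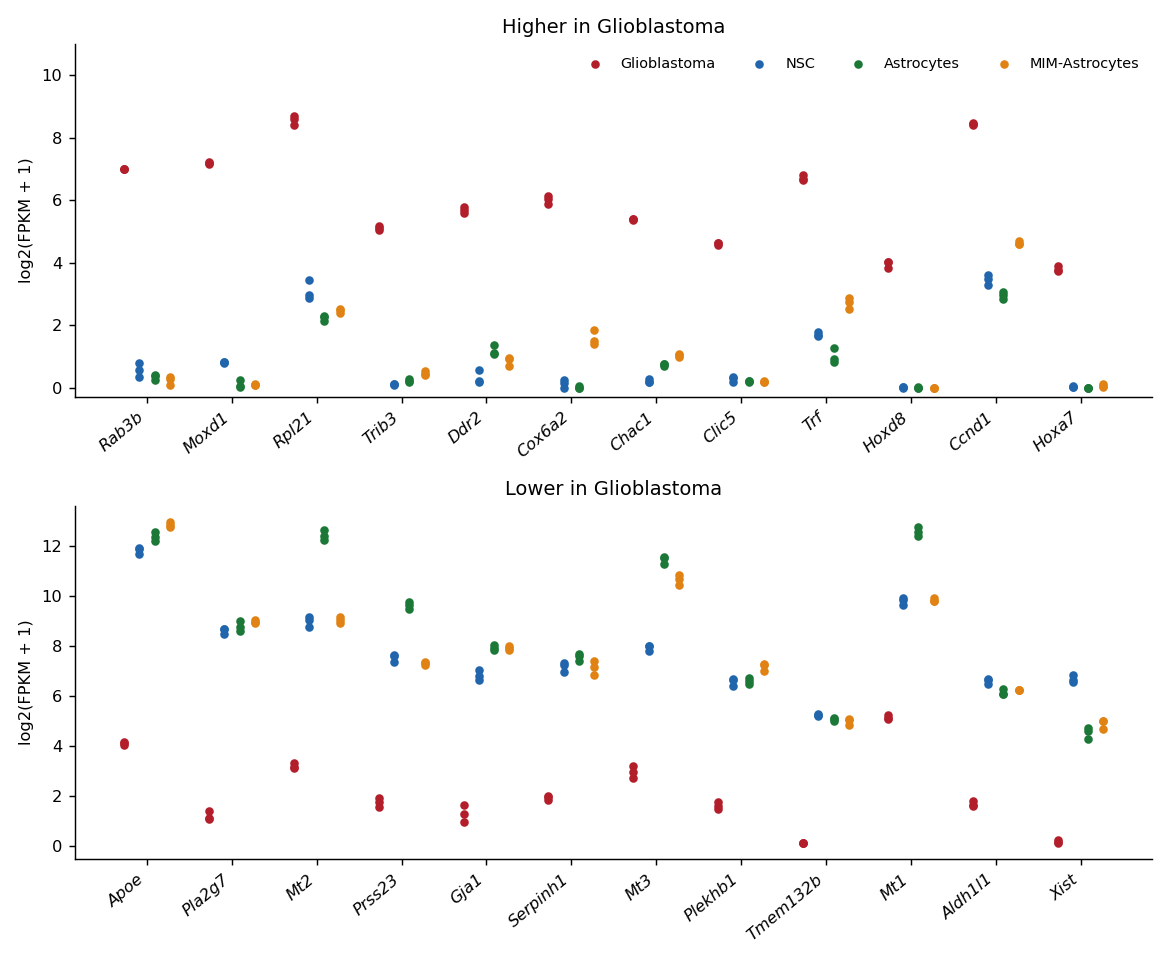
Each point is 1 library on a log2(FPKM + 1) axis, with the 12 genes named as higher in Glioblastoma above and the 12 named as lower below, and the 4 groups side by side for each gene. The genes were picked by this separation, so the Glioblastoma points stand apart from the 9 others for every gene shown. Examples are Rab3b (127, 126 and 126 FPKM against at most 0.745 FPKM) and Apoe (15.5, 17.0 and 16.6 FPKM against at least 3293 FPKM).

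Across 27 gene lists of 802 genes, most of the astrocyte list was lower in Glioblastoma, and most of the amino acid response list was higher. Lists are described by how many tested members were called and by the median over members of the mean of the 3 differences, beside 27.6% higher, 13.6% lower and a median of 0.18 over all tested genes. Genes were tested with at least 1 FPKM in at least 3 libraries. Some members passed this filter only through Glioblastoma, among them Mycn, Hmga2, Trib3, Chac1, Fgf21, Dlx6, Vax2, En2, H19, Col18a1 and Itga4. Their direction was set by the filter, and the counts and medians of their lists include them.

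**Figure D2:**
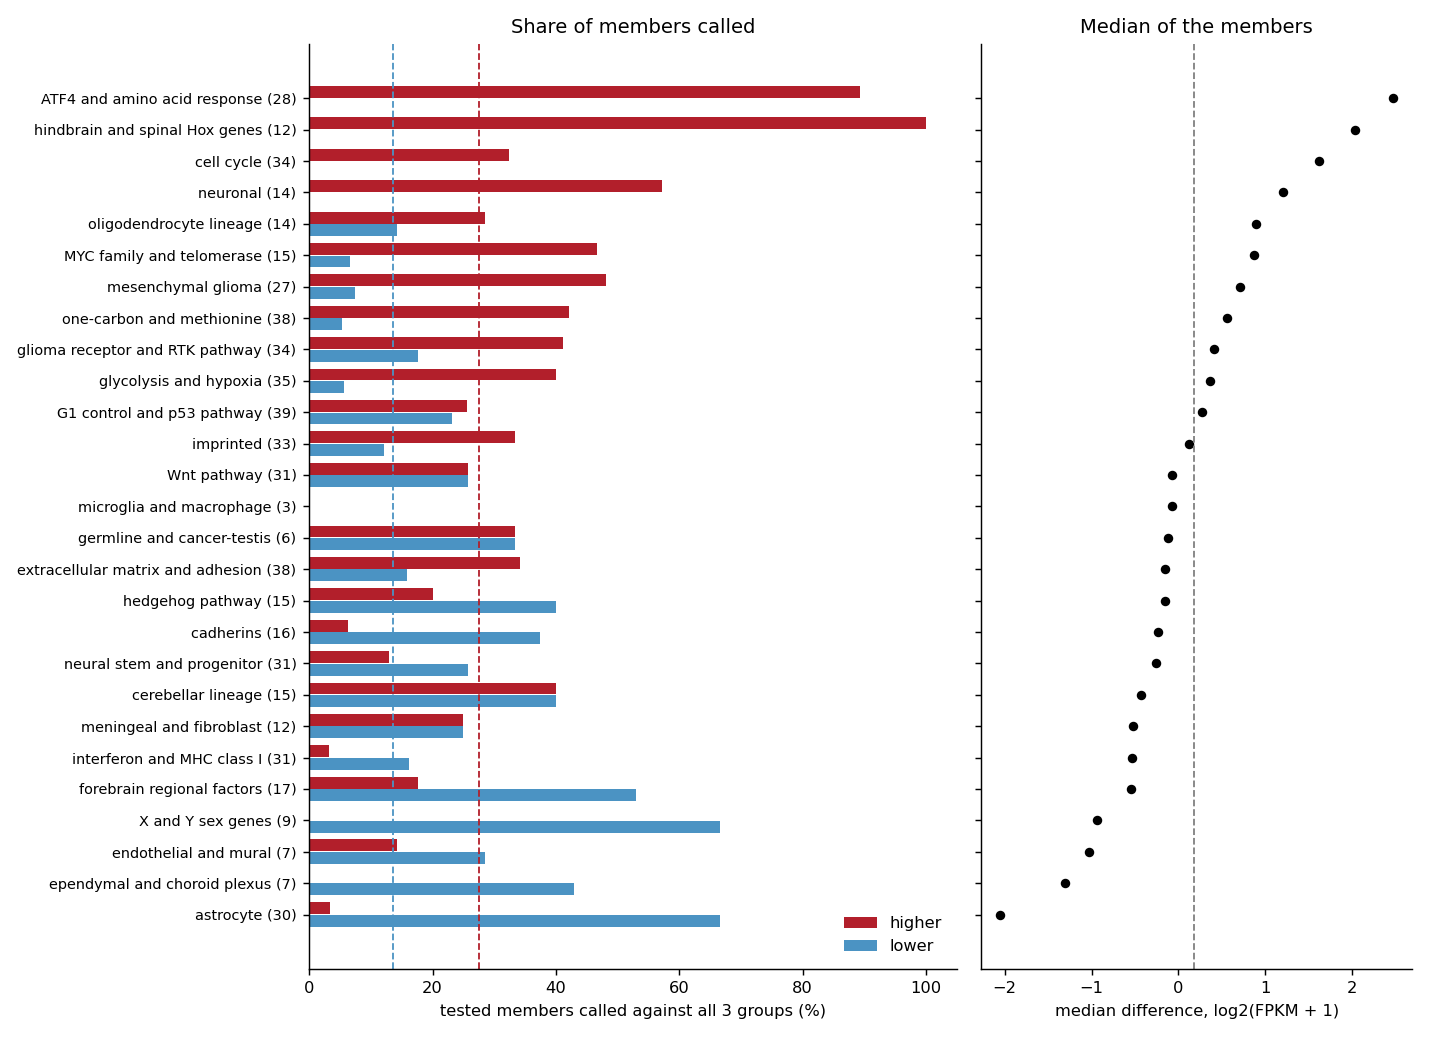
Left, the percent of each list's tested members (number in brackets) called higher or lower in Glioblastoma against all 3 groups, with dashed lines at the 27.6% and 13.6% of all tested genes. Right, the median over members of the mean of the 3 differences in log2(FPKM + 1), with the dashed line at 0.18; the amino acid response list is at 2.47 and the astrocyte list at -2.05. The full bar of the Hox list follows from the filter on low values, which its members passed only through Glioblastoma. Some members of other lists passed it in the same way.

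Of 30 tested astrocyte genes, 20 were lower in Glioblastoma and 1 was higher, with a median of -2.05. Among the lower ones were Aldh1l1, the cytosolic folate dehydrogenase used as a general astrocyte marker, Aqp4, the water channel of astrocyte endfeet, Slc1a2, the main glutamate transporter, Gja1, Apoe, the bicarbonate transporter Slc4a4, and the transcription factors Nfia, Nfib and Nfix. Aldh1l1 had 2.51, 2.09 and 2.11 FPKM in Glioblastoma, against 67.0, 76.3 and 103 FPKM as the lowest, median and highest of the others. Aqp4 had 0.157, 0.103 and 0.115 FPKM in Glioblastoma, against 10.8 ± 0.733 in NSC, 397 ± 27.7 in Astrocytes and 35.5 ± 1.2005 FPKM in MIM-Astrocytes (mean and SD, n = 3 each). Slc1a2 had 7.09, 5.31 and 5.96 FPKM in Glioblastoma and 31.1 to 79.2 FPKM elsewhere, so that these groups were also apart. NSC carried these genes at substantial levels too, and NSC was the nearest group for 12 of the 21 called members, Astrocytes for 8 and MIM-Astrocytes for 1. Summed over the list, the Glioblastoma libraries held 1726 to 1803 FPKM, against 7289 to 8582 in NSC, 12784 to 15776 in Astrocytes and 15010 to 17397 FPKM in MIM-Astrocytes. A large part of the non-tumour sums was Apoe alone. It held 3293 to 3941 FPKM in NSC, 4791 to 6022 in Astrocytes and 6974 to 7971 FPKM in MIM-Astrocytes, against 15.5 to 17.0 FPKM in Glioblastoma.

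Some glial genes did not separate the tumour from the rest with FPKM as deposited. Gfap, the astrocyte intermediate filament, had 2.95, 3.11 and 3.55 FPKM in Glioblastoma, against 0.964 ± 0.169 in NSC, 258 ± 16.1 in Astrocytes and 7.35 ± 0.207 FPKM in MIM-Astrocytes (mean and SD, n = 3 each), so the tumour libraries lay between NSC and the astrocyte cultures. Slc1a3, the glutamate transporter GLAST, had 409.7, 387 and 402 FPKM in Glioblastoma and 362 to 965 FPKM elsewhere, overlapping the other groups; after each of the 3 scalings it was called lower, with smallest differences of -0.28 to -0.68 and limma adjusted p of 0.0181 at most. Clu had 28.2 ± 0.371 FPKM in Glioblastoma, against 2.42 ± 0.282, 848 ± 86.7 and 94.4 ± 8.15 FPKM in NSC, Astrocytes and MIM-Astrocytes. The one astrocyte gene called higher was Gpr37l1 (smallest difference 0.62 ± 0.09, SE), a receptor of glial cells, and it lost the call after common-total scaling.

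Of 31 tested neural stem and progenitor genes, 4 were higher and 8 were lower, with a median of -0.25; after scaling, 1 to 3 were higher and 11 to 13 were lower. The list summed to 3225 to 3439 FPKM in Glioblastoma, against 5162 to 5906 in NSC, 3892 to 4612 in Astrocytes and 7121 to 7772 FPKM in MIM-Astrocytes, so that the tumour libraries were the lowest. Nes, which encodes nestin, had 46.8, 45.5 and 47.5 FPKM in Glioblastoma and 39.7 to 63.1 FPKM elsewhere, and was not called as deposited; after each of the 3 scalings it was called lower, with smallest differences of -0.19 to -0.50 and limma adjusted p of 0.0110 at most. Sox2, the stem cell transcription factor, had 130.5, 135 and 143 FPKM in Glioblastoma and 54.5 to 112 FPKM elsewhere; its smallest difference of 0.39 ± 0.09 (SE) was called with FPKM as deposited and not after any of the 3 scalings. Hes1, a Notch target, was higher (54.1, 53.5 and 54.3 FPKM in Glioblastoma, highest other 25.3 FPKM). Among the lower members were Id4, an inhibitor of bHLH factors, with 1.15, 0.892 and 0.917 FPKM in Glioblastoma against 11.8 to 86.5 FPKM elsewhere, and Pax6, with 3.49, 3.41 and 3.87 FPKM in Glioblastoma against 15.3 to 24.4 FPKM elsewhere.

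Of the oligodendrocyte lineage list, 4 of 14 tested members were higher (28.6%) and 2 were lower (14.3%), with a median of 0.89. These shares are near the 27.6% and 13.6% of all tested genes. The list summed to 492 to 501 FPKM in Glioblastoma, below NSC at 612 to 713 and MIM-Astrocytes at 607 to 687 FPKM. Astrocytes held 112 to 131 FPKM. Nkx2-2, a transcription factor of oligodendrocyte precursors, had 29.1, 27.6 and 27.4 FPKM in Glioblastoma, against 0, 0.464 and 2.33 FPKM as the lowest, median and highest of the others. Olig2, which marks glial progenitors and most gliomas, had 102, 106 and 108 FPKM in Glioblastoma, close to NSC (104 ± 6.87) and MIM-Astrocytes (95.0 ± 5.87), while Astrocytes had 3.63 ± 0.0754 FPKM (SD, n = 3 each); it was not called. Of the 31 genes of the neuronal list, 14 were tested, of which 8 were higher and none was lower (median 1.21). Among the higher ones were Gap43 of growth cones (40.9, 42.8 and 44.6 FPKM in Glioblastoma, highest other 8.75) and the synaptic calcium sensor Syt1 (19.6, 19.4 and 19.7 FPKM in Glioblastoma, highest other 3.22). Dlx6 of this list passed the filter on low values only through Glioblastoma. The list summed to 377 to 390 FPKM in Glioblastoma, below NSC at 404 to 445 FPKM. Astrocytes held 159 to 167 and MIM-Astrocytes 278 to 293 FPKM.

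Markers of other cell types that a brain culture could hold were low in Glioblastoma. Of 18 microglia and macrophage genes, 13 were under 0.1 FPKM in all 3 Glioblastoma libraries; the list summed to 24.3 to 27.7 FPKM there, against 28.0 to 30.8 in NSC, 24.5 to 30.2 in Astrocytes and 24.6 to 26.0 FPKM in MIM-Astrocytes, and none of its 3 tested members was called. Endothelial and mural genes summed to 19.6 to 21.1 FPKM in Glioblastoma, 17.4 to 19.4 in NSC, 206 to 245 in Astrocytes and 22.6 to 24.0 FPKM in MIM-Astrocytes, with 1 higher and 2 lower of 7 tested. Meningeal and fibroblast genes summed to 25.6 to 27.01 FPKM in Glioblastoma, 36.8 to 43.5 in NSC, 323 to 382 in Astrocytes and 45.9 to 51.0 FPKM in MIM-Astrocytes, with 3 higher and 3 lower of 12 tested. Ependymal and choroid plexus genes summed to 9.77 to 10.6 FPKM in Glioblastoma, 33.6 to 39.0 in NSC, 97.2 to 117 in Astrocytes and 28.1 to 32.9 FPKM in MIM-Astrocytes, with no higher and 3 lower of 7 tested. The larger sums in Astrocytes go with every comparison against that group, and their part in it was not tested.

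The amino acid response was the list with the highest median. ATF4 is the transcription factor made when the kinase GCN2 senses uncharged tRNA or when other stress kinases act, and it switches on amino acid transporters, synthetases and tRNA charging enzymes. Of 28 tested members, 25 were higher in Glioblastoma against all 3 groups, 22 of them at least 2-fold against each, and none was lower; the median was 2.47. Trib3, Chac1 and Fgf21 passed the filter on low values only through Glioblastoma and could not be called lower. The counts and median of the list include them. After the 3 alternative scalings, 23 or 24 were called higher. MIM-Astrocytes was the nearest group for 19 of the 25, Astrocytes for 5 and NSC for 1. Trib3, a pseudokinase induced through ATF4 and CHOP, Chac1, which degrades glutathione, Asns, the asparagine synthetase, and Gars, which charges glycyl-tRNA, are shown here by their promoters because the 4 have the largest smallest differences among the members whose promoter window holds the searched motif. The windows run from 250 bases before to 50 bases after the annotated start, from RefSeq on GRCm38.p6, and capitals mark the motif TGATGNAA, the core to which ATF4 binds with C/EBP partners, found on either strand.
Trib3, chr2:152344011-152344310, minus strand: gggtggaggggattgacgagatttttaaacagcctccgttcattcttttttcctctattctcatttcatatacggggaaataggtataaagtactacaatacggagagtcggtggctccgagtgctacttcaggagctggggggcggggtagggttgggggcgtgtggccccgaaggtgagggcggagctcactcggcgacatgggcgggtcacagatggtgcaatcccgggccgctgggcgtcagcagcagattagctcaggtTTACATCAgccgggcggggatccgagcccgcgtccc
Chac1, chr2:119350992-119351291, plus strand: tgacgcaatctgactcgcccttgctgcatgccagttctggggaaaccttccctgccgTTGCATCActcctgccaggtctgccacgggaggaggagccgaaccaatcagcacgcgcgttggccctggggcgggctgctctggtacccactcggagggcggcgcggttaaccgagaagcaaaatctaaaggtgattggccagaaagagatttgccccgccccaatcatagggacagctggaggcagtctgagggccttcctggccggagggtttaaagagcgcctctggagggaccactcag
Asns, chr6:7693160-7693459, minus strand: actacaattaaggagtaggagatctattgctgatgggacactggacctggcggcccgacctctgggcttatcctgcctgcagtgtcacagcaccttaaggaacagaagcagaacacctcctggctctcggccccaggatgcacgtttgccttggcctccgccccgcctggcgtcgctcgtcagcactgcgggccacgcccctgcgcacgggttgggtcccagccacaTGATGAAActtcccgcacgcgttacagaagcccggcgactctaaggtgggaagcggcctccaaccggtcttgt
Gars, chr6:55037751-55038050, plus strand: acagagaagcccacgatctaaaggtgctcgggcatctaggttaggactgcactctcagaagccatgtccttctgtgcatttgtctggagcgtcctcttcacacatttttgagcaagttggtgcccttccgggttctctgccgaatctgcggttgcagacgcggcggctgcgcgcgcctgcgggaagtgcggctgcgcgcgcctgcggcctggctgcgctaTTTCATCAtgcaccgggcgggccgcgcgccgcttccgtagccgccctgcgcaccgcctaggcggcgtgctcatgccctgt
The motif begins 14 bases after the start in Trib3, and at positions -193, -23 and -30 relative to the start in Chac1, Asns and Gars. Of 24 list members with a window in the table, 12 held it (50.0%), as did 11 of the 21 called higher (52.4%), against 274 of 10344 tested genes with a window (2.65%) and 1219 of 27025 genes in the whole table (4.51%). Among all genes called higher the share was 2.85%, and among all called lower 2.98%. The list was chosen for the ATF4 and amino acid response, so its high share can come from how it was chosen. Within the list, the share was about the same for members called higher as for all members. A match is a description of these letters, not of binding.

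Trib3 had 31.995, 33.6 and 35.3 FPKM in Glioblastoma, against 0.0603, 0.164 and 0.429 FPKM as the lowest, median and highest of the others (smallest difference 4.66 ± 0.05, SE). Chac1 had 40.3, 41.3 and 41.5 FPKM in Glioblastoma and 0.136 to 1.13 FPKM elsewhere. Both were close to silent outside the tumour libraries. They passed the filter on low values only through Glioblastoma, so that their direction was set by it. Asns had 309.5, 313 and 338 FPKM in Glioblastoma, against 10.7 ± 1.56 in NSC, 14.98 ± 1.29 in Astrocytes and 37.2 ± 0.960 FPKM in MIM-Astrocytes (mean and SD, n = 3 each). Gars had 124, 121 and 127 FPKM in Glioblastoma and 14.5 to 25.9 FPKM elsewhere. The regulators were higher as well: Atf4 itself had 231, 221 and 235 FPKM in Glioblastoma, against 20.8, 42.2 and 53.6 FPKM as the lowest, median and highest of the others, with a smallest difference of 2.16 ± 0.12 (SE). Ddit3, which encodes CHOP, had 107, 106 and 113 FPKM in Glioblastoma and 10.8 to 25.1 FPKM elsewhere. Fgf21, a secreted hormone and known target of ATF4 in liver, had 3.36, 3.57 and 3.33 FPKM in Glioblastoma and was listed at 0 in NSC and Astrocytes, with 0.0207 FPKM at most in MIM-Astrocytes. The cystine transporter Slc7a11 had the smallest called difference of the list: 10.6, 10.9 and 11.04 FPKM in Glioblastoma against 9.62 ± 0.330 FPKM in MIM-Astrocytes (0.16 ± 0.05, SE; limma adjusted p 0.0137). Atf3, Sesn2 and Slc6a9 were not called; for Atf3 the Glioblastoma libraries (4.97 to 5.36 FPKM) overlapped the Astrocytes libraries (4.47 to 5.51 FPKM).

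**Figure D3:**
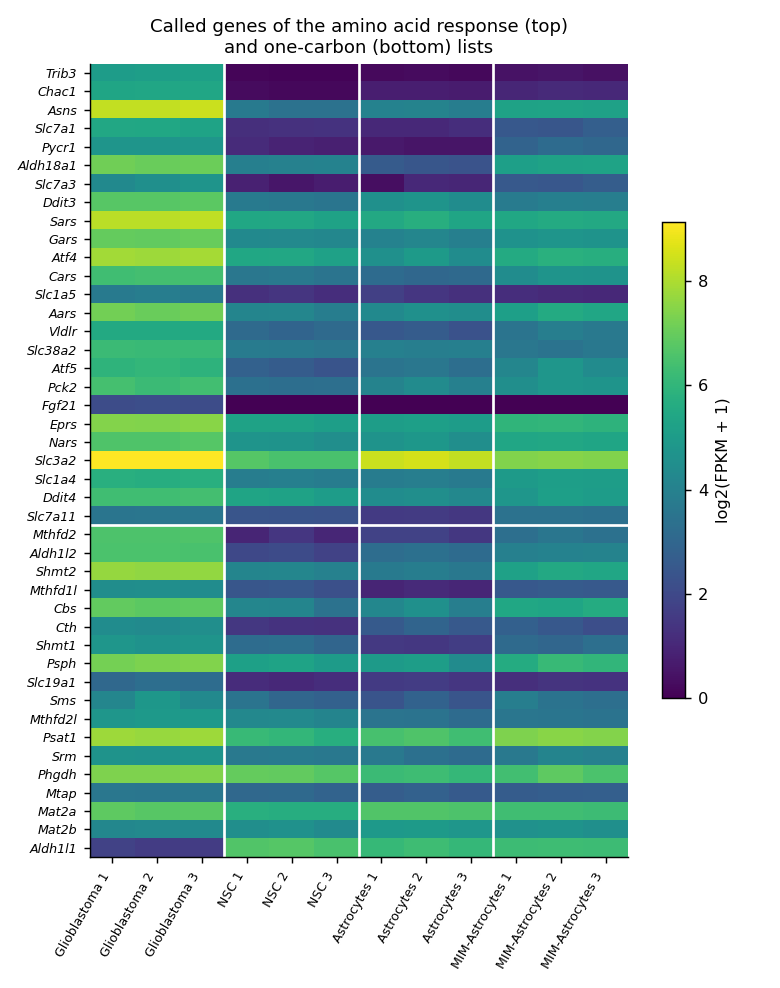
Colour gives log2(FPKM + 1) of the called genes of the amino acid response list (top) and of the one-carbon list (bottom) in each of the 12 libraries, with Glioblastoma in the left block and white lines between groups. The Glioblastoma block is brighter in every row except Aldh1l1 (2.51, 2.09 and 2.11 FPKM against at least 67.0 FPKM) and Mat2b, and rows such as Slc7a11 and Psat1 differ little from MIM-Astrocytes.

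The folate enzymes of the mitochondrion were higher together with this list, and the cytosolic enzyme Aldh1l1 was lower. Serine is cleaved by SHMT2 in mitochondria, MTHFD2 oxidises the carbon unit released, and ALDH1L2 or ALDH1L1 can burn it off in mitochondria or cytosol. Of 38 tested one-carbon and methionine genes, 16 were higher in Glioblastoma and 2 were lower (median 0.56); after scaling, 13 or 14 were higher and 5 to 7 were lower. Mthfd2 had 94.5, 94.7 and 97.2 FPKM in Glioblastoma, against 1.19 ± 0.452 in NSC, 2.25 ± 0.391 in Astrocytes and 9.84 ± 1.05 FPKM in MIM-Astrocytes (mean and SD, n = 3 each), a smallest difference of 3.16 ± 0.14 (SE; limma adjusted p at most 1.41e-08). Shmt2 had 202, 195 and 198 FPKM in Glioblastoma and 11.4 to 44.4 FPKM elsewhere. Aldh1l2 had 91.4, 90.8 and 90.6 FPKM in Glioblastoma and 2.44 to 15.9 FPKM elsewhere. For all 3 enzymes the highest non-tumour libraries were those of MIM-Astrocytes. Aldh1l1, on the astrocyte list as well, went the other way, at 2.24 FPKM on average in Glioblastoma and no less than 67.0 FPKM in any other library.

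The serine pathway differed by smaller amounts. Psph, the last enzyme of serine synthesis, had 146, 158 and 167 FPKM in Glioblastoma and 20.1 to 70.4 FPKM elsewhere. Psat1, the step before it, had 219, 207 and 218 FPKM in Glioblastoma, just above MIM-Astrocytes at 171 ± 8.86 FPKM (SD, n = 3). Phgdh, the first step, had 163, 162 and 166 FPKM in Glioblastoma and 67.1 to 122 FPKM elsewhere, and its smallest difference of 0.50 ± 0.12 (SE) lost the call after quantile normalization. Cbs and Cth, which turn homocysteine into cysteine, were both higher, with 112 to 122 and 19.8 to 21.5 FPKM in Glioblastoma; the highest others had 47.8 FPKM for Cbs in MIM-Astrocytes and 6.71 FPKM for Cth in Astrocytes. Mat2b, a regulatory subunit in S-adenosylmethionine synthesis, was lower by a smallest difference of -0.23 ± 0.08 (SE), and lost that call when any one of Glioblastoma libraries 1 and 2 or NSC libraries 1 and 2 was left out.

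Of 34 tested members of the glioma receptor and RTK pathway list, 14 were higher in Glioblastoma and 6 were lower (median 0.41); after scaling, 10 to 12 were higher and 6 or 7 were lower. Receptor tyrosine kinases act through RAS and ERK, and ERK induces the Sprouty inhibitors (Spry genes), the ERK phosphatases (Dusp genes) and the ETS factors Etv4 and Etv5. Several such genes of the list are described here, and they were picked out after their values were seen. Dusp6 had 367, 363 and 371 FPKM in Glioblastoma, against 8.82, 37.99 and 42.7 FPKM as the lowest, median and highest of the others (smallest difference 3.16 ± 0.07, SE, against MIM-Astrocytes). Spry1 had 126, 123 and 126 FPKM in Glioblastoma, against 0.353, 5.61 and 10.7 FPKM in the same order. Etv4 averaged 73.2 ± 5.11 FPKM in Glioblastoma, 23.01 ± 1.90 in NSC, 1.69 ± 0.435 in Astrocytes and 27.2 ± 3.73 FPKM in MIM-Astrocytes (SD, n = 3 each). In each of these genes NSC and MIM-Astrocytes, the cultures given FGF2, lay above serum-grown Astrocytes and below the tumour; the part of FGF2 in this was not tested. Dusp4, Dusp5, Spry2, Spry4 and Etv5 were also higher, with smallest differences of 3.14, 1.73, 1.48, 2.43 and 1.30.

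Egfr, the receptor most often amplified in human glioblastoma, had 11.99, 13.5 and 12.9 FPKM in Glioblastoma, against 170.3 ± 3.19 in NSC, 19.9 ± 0.421 in Astrocytes and 151 ± 13.9 FPKM in MIM-Astrocytes (mean and SD, n = 3 each). The tumour libraries were the lowest of all, nearest to Astrocytes (-0.60 ± 0.07, SE; limma adjusted p 1.29e-05). Fgfr3 had 11.4, 10.9 and 10.6 FPKM in Glioblastoma and 47.9 to 99.3 FPKM elsewhere, Fgfr2 had 5.48, 7.58 and 6.06 FPKM against 24.6 to 87.1 FPKM, and Erbb2 had 0.543, 0.511 and 0.497 FPKM against 3.23 to 5.10 FPKM. Pdgfra, the receptor of oligodendrocyte precursors, was not called: Glioblastoma had 10.53, 10.0 and 10.3 FPKM, between NSC at 24.4 ± 1.44 and MIM-Astrocytes at 2.52 ± 0.0627 FPKM (SD, n = 3 each). Met and the glioma suppressor Nf1 were not called either; Nf1 had 25.0, 24.3 and 22.6 FPKM in Glioblastoma and 17.2 to 32.7 FPKM elsewhere.

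The D-type cyclins Ccnd1 and Ccnd2, Cdkn2a and Trp53 were higher, while some p53 target genes were lower. Of 39 tested members of the G1 control and p53 pathway list, 10 were higher and 9 were lower (median 0.27), a share of higher genes no larger than over all genes; after scaling, 6 to 8 were higher and 11 to 13 were lower. Ccnd1 (chr7:144929931-144939925, minus strand) had 355, 338 and 347 FPKM in Glioblastoma, against 6.11, 10.0 and 24.6 FPKM as the lowest, median and highest of the others (smallest difference 3.82 ± 0.08, SE; limma adjusted p at most 1.11e-10). Ccnd2 had 216, 195 and 194 FPKM in Glioblastoma and 26.8 to 81.0 FPKM elsewhere. Cdkn2a (chr4:89274471-89294653, minus strand), which encodes both the CDK inhibitor p16 and the p53 stabiliser ARF, had 106, 107 and 114 FPKM in Glioblastoma, against 5.01, 8.66 and 10.7 FPKM in the same order; FPKM per gene does not separate its transcripts. Its neighbour Cdkn2b had 20.0, 21.8 and 22.1 FPKM in Glioblastoma and 3.49 to 14.7 FPKM elsewhere, and lost the call after common-total scaling. Trp53, the gene of p53, had 16.4, 17.0 and 16.9 FPKM in Glioblastoma, against 5.33, 6.45 and 8.20 FPKM as the lowest, median and highest of the others, a smallest difference of 1.06 ± 0.08 (SE; limma adjusted p at most 1.14e-06).

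Eda2r, a death receptor induced by p53, had 0.0349, 0.0364 and 0.0288 FPKM in Glioblastoma and 4.56 to 20.8 FPKM elsewhere. Trp53inp1 had 8.26, 8.83 and 8.17 FPKM in Glioblastoma and 26.3 to 52.4 FPKM elsewhere, and Ccng1 had 11.7, 11.6 and 12.2 FPKM in Glioblastoma and 27.5 to 114 FPKM elsewhere. The p53 targets Sesn1 and Phlda3 were also lower, with smallest differences of -1.003 and -0.87. Other p53 targets did not follow: Bbc3, which encodes the cell death factor PUMA, and Plk2 were higher (smallest differences 0.38 and 1.94), and Cdkn1a and Mdm2 were not called. Cdkn1a, which encodes p21, had 11.1, 10.46 and 10.7 FPKM in Glioblastoma, against 5.86 ± 0.0665 in NSC, 11.2 ± 0.716 in Astrocytes and 20.8 ± 0.709 FPKM in MIM-Astrocytes (mean and SD, n = 3 each). Mdm2, the ligase that removes p53, had 27.9, 29.8 and 25.3 FPKM in Glioblastoma and 20.7 to 25.7 FPKM elsewhere, and the direction of its mean difference turned with each of the 3 scalings. Rb1, the gene of the retinoblastoma protein, was lower, with 20.1 to 25.3 FPKM in Glioblastoma, 34.6 to 38.7 in NSC, 44.7 to 49.0 in Astrocytes and 34.2 to 44.1 FPKM in MIM-Astrocytes.

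Several replication genes were higher than in every other culture, while the cycling marker Mki67 and the mitotic gene Plk1 were not called. Of 34 tested cell cycle genes, 11 were higher (32.4%, near the 27.6% of all tested genes) and none was lower. After scaling, 8 or 9 were higher and none was lower. MIM-Astrocytes was the nearest group for 10 of the 11. The median of 1.62 takes in the difference against Astrocytes, where Mcm3 and Mki67 were lowest. The called members include the replicative helicase subunits Mcm2, Mcm3, Mcm5, Mcm6 and Mcm7 and their loader Cdc6. Mcm3 averaged 49.99 ± 1.99 FPKM in Glioblastoma, 4.98 ± 0.560 in NSC, 0.688 ± 0.179 in Astrocytes and 14.7 ± 0.449 FPKM in MIM-Astrocytes (SD, n = 3 each). Mki67, the general mark of cycling cells, had 22.2, 22.2 and 20.98 FPKM in Glioblastoma, against 20.3 ± 1.16 in NSC, 0.112 ± 0.0151 in Astrocytes and 51.9 ± 0.887 FPKM in MIM-Astrocytes, and was not called. The mitotic kinase gene Plk1 likewise lay highest in MIM-Astrocytes (22.98 to 25.1 FPKM), with Glioblastoma at 9.23 to 10.4 and NSC at 5.81 to 7.19 FPKM.

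Of the MYC family and telomerase list, 7 of 15 tested members were higher and 1 was lower (median 0.87). Myc had 24.9, 22.96 and 22.1 FPKM in Glioblastoma and 3.42 to 8.32 FPKM elsewhere, and Mycn had 3.28, 3.13 and 3.26 FPKM in Glioblastoma and 0 to 0.848 FPKM elsewhere. Hmga2, a chromatin protein of embryonic cells, had 7.11, 7.29 and 6.95 FPKM in Glioblastoma and at most 0.323 FPKM elsewhere. Mycn and Hmga2 passed the filter on low values only through Glioblastoma, so that their direction was set by it. The count and median of the list include them. Terc, the RNA template of telomerase, had 54.4, 65.6 and 70.3 FPKM in Glioblastoma and 0.0798 to 9.02 FPKM elsewhere; Tert, the protein subunit, was below the limit for testing. The lower member was Mxd4, a MYC antagonist (smallest difference -0.36).

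The Glioblastoma libraries expressed Hox genes of the Hoxa and Hoxd clusters that were close to 0 in all 9 others. Hox genes set position along the body axis; they are active in hindbrain and spinal cord and silent in forebrain and in the anterior cerebellar territory. Of 39 Hox genes, 13 reached the limit for testing: 9 of the Hoxa cluster on chromosome 6 and 4 of the Hoxd cluster on chromosome 2. All 13 reached it only through Glioblastoma, since no Hox gene exceeded 0.367 FPKM in any other library, so that their call as higher was set by the filter and their levels are given as a description. Hoxd8 had 15.2, 13.1 and 15.1 FPKM in Glioblastoma, 0.0221, 0.00751 and 0 in NSC, 0, 0 and 0.0111 in Astrocytes, and was listed at 0 in MIM-Astrocytes. Hoxa7 had 12.7, 12.2 and 13.7 FPKM in Glioblastoma, 0.0190, 0.0101 and 0.0460 in NSC and 0.0271, 0.0770 and 0.0229 FPKM in MIM-Astrocytes, and was listed at 0 in Astrocytes. Hoxa6, listed at 0 in all 9 others, had 5.25, 4.51 and 3.87 FPKM in Glioblastoma. Hoxa5 reached 7.66, 8.02 and 7.62 FPKM in Glioblastoma and at most 0.223 FPKM elsewhere.

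The clusters differed within the tumour. The Hoxa genes summed to 44.0 to 45.1 FPKM in Glioblastoma and 0.228 to 0.956 FPKM elsewhere, and the Hoxd genes to 22.1 to 23.9 FPKM in Glioblastoma and at most 0.0413 FPKM elsewhere. The Hoxc genes summed to only 1.84 to 1.92 FPKM in Glioblastoma, and the Hoxb genes to at most 0.0296 FPKM. Within Hoxa, Hoxa11 was at 0.0180 to 0.0330 FPKM in Glioblastoma between the called genes Hoxa10 and Hoxa13. Hoxd3 and Hoxd4 overlap on the same strand, and reads may be shared between them.

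**Figure D4:**
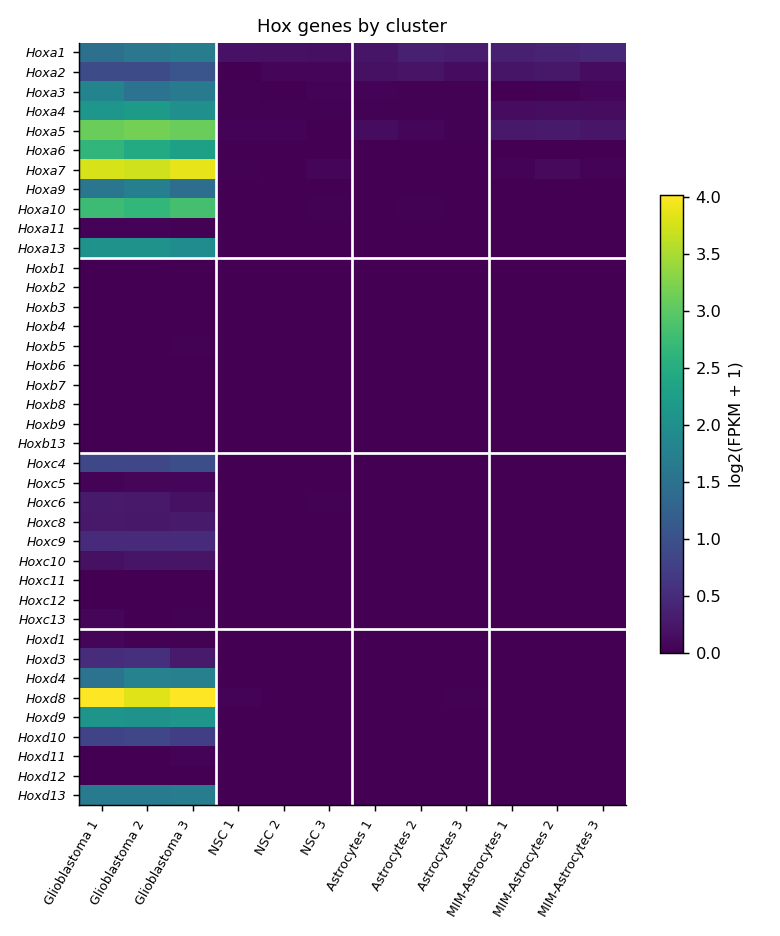
Colour gives log2(FPKM + 1) of the 39 Hox genes in each of the 12 libraries, in order of paralogue number within the Hoxa, Hoxb, Hoxc and Hoxd clusters from top to bottom, with Glioblastoma in the left block. Signal appears in the Glioblastoma block for Hoxa and Hoxd genes (Hoxa7 12.7, 12.2 and 13.7 FPKM) and is near 0 for the Hoxb rows and for nearly all rows of the other groups.

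Regional factors of the brain were mixed. Of 17 tested forebrain factors, 9 were lower and 3 were higher (median -0.54). Among the higher ones Vax2, a ventral eye and forebrain factor, had 8.66, 8.37 and 8.26 FPKM in Glioblastoma and at most 0.188 FPKM elsewhere. Vax2 passed the filter on low values only through Glioblastoma, so that its direction was set by it. The label gives cerebella as the tissue, and the list of cerebellar genes went both ways: of 15 tested, 6 were higher and 6 were lower (median -0.43), and 18 of the 33 on the list were below the limit for testing. Zic1, needed for granule neurons of the cerebellum, had 0.0970, 0.0400 and 0 FPKM in Glioblastoma and 10.7 to 26.6 FPKM in the other cultures. Atoh1, which defines cerebellar granule precursors, was at 0.00975 to 0.0685 FPKM in Glioblastoma and listed at 0 elsewhere. En2, a factor of midbrain and cerebellum, was higher, at 2.87, 2.57 and 2.84 FPKM in Glioblastoma and 0.226 to 0.532 FPKM elsewhere. It too passed the filter only through Glioblastoma. Irx1 was higher as well, with 12.1, 9.45 and 10.9 FPKM in Glioblastoma and 0.146 to 2.39 FPKM elsewhere.

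A small set of genes was switched between the states. Of 16982 tested genes, 59 had at least 1 FPKM in all 3 Glioblastoma libraries and under 0.1 FPKM in all 9 others. Of these 59, 44 were protein coding and 10 were Hox genes. By this definition all 59 passed the filter on low values only through Glioblastoma, so that their direction was set by it. Besides Hox genes, they include the homeobox factors Shox2, Tlx1 and Lbx1, known from limb, spleen and spinal cord development. Shox2 had 6.71, 8.88 and 6.47 FPKM in Glioblastoma and at most 0.0829 FPKM elsewhere. Lbx1, listed at 0 in all 9 others, had 4.49, 3.96 and 4.09 FPKM in Glioblastoma. Areg, an EGF receptor ligand, had 3.31, 4.25 and 4.16 FPKM in Glioblastoma and at most 0.0848 FPKM elsewhere. Conversely, 43 of the 16982 were under 0.1 FPKM in all 3 Glioblastoma libraries and at least 1 FPKM in all 9 others, 30 of them protein coding. These 43 passed the filter only through the 9 others. Among these were the zinc transporter gene Slc39a12 (at most 0.0151 FPKM in Glioblastoma, 3.94 to 263 FPKM elsewhere), the glutamate receptor gene Grm3 (0.0846, 0.0733 and 0.0329 FPKM in Glioblastoma, 5.003 to 19.09 FPKM elsewhere) and Aldh1a1, a retinoic acid synthesis enzyme (0.0137, 0.0462 and 0.0349 FPKM in Glioblastoma, 2.49 to 118 FPKM elsewhere).

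Genes of the mesenchymal glioma list were also higher in part, while matrix genes went both ways. The mesenchymal glioma list, drawn from genes that mark the mesenchymal expression subtype of human tumours, had 13 of 27 tested members higher and 2 lower (median 0.71), and Astrocytes was the nearest group for 10 of the 13. Timp1, an inhibitor of matrix proteases, had 28.1, 29.0 and 30.9 FPKM in Glioblastoma, against 0.310, 1.22 and 2.94 FPKM as the lowest, median and highest of the others. Spp1, which encodes osteopontin, had 24.3, 23.3 and 26.2 FPKM in Glioblastoma and 0.0142 to 4.39 FPKM elsewhere. Itga5, the fibronectin receptor subunit, had 10.7, 9.51 and 9.92 FPKM in Glioblastoma and 0.489 to 1.14 FPKM elsewhere. Vim and Cd44, 2 further members of the list, were not called.

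Of 38 tested genes of extracellular matrix and adhesion, 13 were higher (34.2%) and 6 were lower (15.8%), near the 27.6% and 13.6% of all tested genes. The median of -0.15 lay below the 0.18 of all tested genes. After scaling, 9 to 11 were higher and 8 were lower. The median was then -0.51 to -0.35, against -0.13 to 0.002 over all tested genes. The laminin chain Lama4 (21.6, 19.4 and 22.0 FPKM in Glioblastoma, highest other 1.31), the collagen Col18a1 (19.6, 15.2 and 16.1 FPKM, highest other 0.743) and the integrin Itga4 (8.35, 9.13 and 8.30 FPKM, highest other 0.273) were higher. The integrins Itgb5 (3.25, 3.03 and 2.65 FPKM in Glioblastoma, lowest other 26.2) and Itgb8 (8.06, 7.88 and 8.15 FPKM, lowest other 37.0) were lower. Of 16 tested cadherin family genes, 6 were lower and 1 was higher (median -0.24), among them the planar polarity gene Celsr1 (0.248, 0.297 and 0.287 FPKM in Glioblastoma, lowest other 7.30) and Cdh2, which encodes N-cadherin (16.2, 16.02 and 16.1 FPKM, lowest other 40.0). The higher one was Cdh13, which lost the call after common-total scaling.

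Chromosomes 4, 16 and 18 held a large share of the lower genes. For each library, the median deviation of a chromosome's tested genes was taken relative to that library's median over all genes. On chromosomes 4, 16 and 18 the Glioblastoma libraries were lower by 0.54, 0.58 and 0.55 in log2(FPKM + 1), and the medians of the 17 other chromosomes tested differed by -0.14 to 0.28. All 3 Glioblastoma libraries lay at -0.42 to -0.39 on chromosome 4, and all 9 others at 0.10 to 0.16. In a two-sided exact permutation test of 3 against 9 libraries, each of the 3 chromosomes gave p = 0.00909, the smallest that 220 arrangements allow, and an adjusted p of 0.0107 over 20 chromosomes. The same test called 7 of the 20 chromosomes lower (35.0%) and 10 higher (50.0%), so these 3 stand apart by the size of the difference and not by the p-value. Without centring on each library's median the differences were -0.34, -0.38 and -0.35.

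Of 1986 tested genes on chromosomes 4, 16 and 18, 672 were lower in Glioblastoma (33.8%) and 159 were higher (8.01%), against 1630 lower (10.9%) and 4514 higher (30.2%) of 14942 on the 17 other chromosomes. The 3 chromosomes hold 11.7% of the tested genes and 29.1% of the lower ones. The shift ran along their whole length: of windows of 10 Mb with at least 15 tested genes, all 16 on chromosome 4, all 9 on chromosome 16 and all 9 on chromosome 18 had a median difference below -0.3, against 15 of 227 windows on the other chromosomes. Several genes named above lie there, such as Trp53inp1 on chromosome 4, Itgb5 on chromosome 16, and Aqp4 and Cdh2 on chromosome 18. Single genes went against it: Rab3b and Cdkn2a, among the most strongly higher genes, lie on chromosome 4, and Etv5, Hes1, Gap43 and the uncalled Olig2 on chromosome 16. Chromosome content of the cells was not analysed here.

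**Figure D5:**
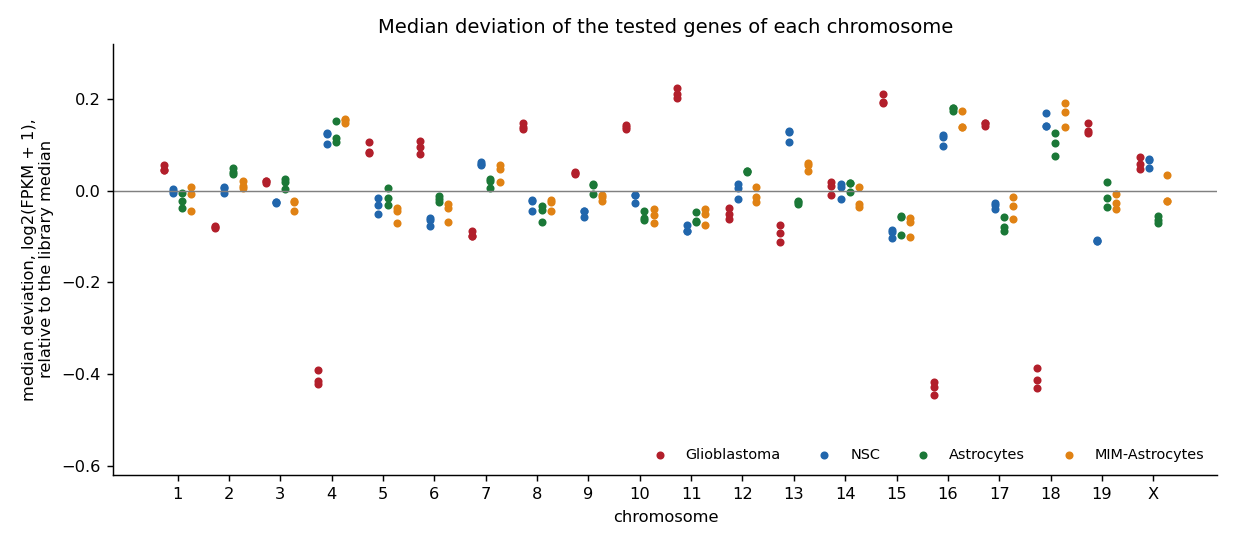
Each point is 1 library: the median deviation in log2(FPKM + 1) of the tested genes of a chromosome, relative to that library's median over all genes, with Glioblastoma left of NSC, Astrocytes and MIM-Astrocytes for each chromosome. The Glioblastoma points lie at about -0.4 on chromosomes 4, 16 and 18 (-0.42 to -0.39 on chromosome 4) and within 0.3 of 0 on the others.

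Chromosome X as a whole did not stand out: of its 575 tested genes, 175 were higher (30.4%) and 81 were lower (14.1%), with p = 0.109 in the exact permutation test. Of a list of 9 tested genes chosen to tell the sexes apart, on X and Y, 6 were lower and none was higher (median -0.93). Xist, the RNA that silences an X chromosome in female cells, had 0.199, 0.0984 and 0.122 FPKM in Glioblastoma, against 103 ± 10.99 in NSC, 22.4 ± 3.44 in Astrocytes and 29.4 ± 3.73 FPKM in MIM-Astrocytes (mean and SD, n = 3 each). The Y-linked demethylase gene Kdm5d had 4.86, 4.50 and 4.40 FPKM in Glioblastoma and 8.49 to 10.7 FPKM elsewhere, and Uty had 4.33, 3.20 and 3.53 FPKM in Glioblastoma and 7.48 to 13.8 FPKM elsewhere. Each of the 9 non-tumour libraries thus held both Xist and Y-linked RNA, while the Glioblastoma libraries held Y-linked RNA with Xist near 0.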

How the data were processed

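Total RNA of 12 libraries was sequenced, per the labels. FPKM values with 95% intervals and a status per gene were deposited by the authors; Cufflinks (version not given) and build GRCm38 are named in the submitters' processing notes. Aligner, strandedness and annotation are not given in the sources used here, so antisense and overlapping genes are uncertain. Gene identifiers matched GENCODE release M21 in 99.9% of cases, and 97.5% had the same coordinates.

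Lines with a status other than OK were dropped, which removed 29 genes above the filter. Genes with at least 1 FPKM in at least 3 libraries were tested (16982, 12520 protein coding) with limma 3.58.1 (R 4.3.3) on log2(FPKM + 1), with a variance trend and 4 group means over 12 libraries. A gene that passed this filter only through Glioblastoma could be called higher but not lower. Adjusted p-values are Benjamini-Hochberg over all tested genes. Chromosomes were tested by exact permutation (Python 3.11.15, pandas 2.3.3, NumPy 2.4.6, SciPy 1.17.1; figures with matplotlib 3.10.9). The code was tested on simulated data.

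Named were the 12 genes each way with the largest smallest difference and a mean of at least 5 FPKM, up to 3 each way per list, and 29 chosen genes, 154 in all; some of these are not reported here. Other list members, and Hoxa6, Fgf21, Shox2, Tlx1, Lbx1, Areg, Slc39a12, Grm3 and Aldh1a1, were named after their values were seen. Members and lists were chosen with earlier results of these data known. Alternatives were 3 scalings, other pseudocounts and filters, protein-coding genes only, array weights, separate fits, a replicate block, and leaving out libraries or groups; medians without centring were added after seeing the data. Replicate numbers did not pair libraries: deviations of same-numbered libraries correlated at -0.05 to 0.09 across genes.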

Additional observations from a re-analysis of the deposited data

How the results depend on the processing

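Over 26 settings, counts of genes against all 3 groups stayed within 1.5 times those reported, except 2497 higher genes after common-total scaling; the split of higher and lower was 3432 and 3216 after median-of-ratios, 2497 and 3187 after common-total and 3448 and 2934 after quantile scaling. Common-total scaling also gave 4673 genes higher and 7992 lower than in Astrocytes, and 2726 genes with all 3 libraries above. Without a filter on low values, 6427 genes were lower than in NSC and 8062 lower than in Astrocytes; with a mean of at least 5 FPKM in a group, 2782 were lower than in NSC and 1692 lay below all 9 others. Requiring that the authors' intervals do not overlap left 3391 genes above and 1357 below. Leaving out 1 library at a time gave 4432 to 4799 higher and 2182 to 2348 lower genes, 5123 to 5426 above and 2586 to 2735 below. The medians of chromosomes 4, 16 and 18 then ran from -0.55 to -0.53, -0.59 to -0.57 and -0.56 to -0.54.

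The replicate block gave 4677 higher and 2306 lower genes, and of the named genes only Enpp2 lost its call with it; in 2 of 9 cases a Glioblastoma library correlated best with its own number. Of 143 named genes that were called, 13 lost the call under at least 1 setting, and Enpp2, Mat2b, Tdrd6 and Tdrkh did so on leaving out 1 library. Directions of the mean difference that turned were all of uncalled genes. Gfap went to 0.0529, Met to 0.47 and Mki67 to -0.56 without the Astrocytes libraries. Met was 0.20 with pseudocount 0.1, and Nf1 0.14 without the MIM-Astrocytes libraries and -0.0502 to 0.0180 on leaving out 1 library. Mdm2 was -0.0313, -0.155 and -0.0492 after median-of-ratios, common-total and quantile scaling. The cause was not tested. Without counts, the depth behind low values is unknown.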

Other observations

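Of 35 tested genes of glycolysis and hypoxia, 14 were higher in Glioblastoma and 2 were lower (median 0.37, against 0.18 over all tested genes); after scaling, 7 to 9 were higher and 3 were lower. At least 2-fold against each group were 4 of the higher genes and 1 of the lower. Vegfa, the vascular growth factor, had 179, 179.9 and 180.1 FPKM in Glioblastoma, against 4.71, 7.33 and 32.6 FPKM as the lowest, median and highest of the others (smallest difference 2.52 ± 0.09, SE; limma adjusted p at most 4.14e-09). Hk2, a hexokinase of growing tissue, had 18.1, 21.2 and 19.8 FPKM in Glioblastoma and 0.484 to 6.54 FPKM elsewhere. Ldhb, the lactate dehydrogenase chain of oxidative tissue, was lower, at 117, 121 and 122 FPKM in Glioblastoma and 305 to 1209 FPKM elsewhere. Ldha, Pkm and Slc2a1 were not called.

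Wnt and hedgehog genes split. Of 31 tested Wnt pathway genes, 8 were higher and 8 were lower (25.8% each), beside 27.6% higher and 13.6% lower of all tested genes. The median was -0.07. After scaling, 4 to 6 were higher and 8 to 11 were lower. The receptor gene Fzd1 had 102, 100.03 and 102 FPKM in Glioblastoma and 5.52 to 8.90 FPKM elsewhere, and the Wnt antagonist gene Sfrp1 had 1.11, 1.08 and 1.29 FPKM in Glioblastoma and 4.28 to 22.7 FPKM elsewhere. Of 15 tested hedgehog genes, 3 were higher (20%) and 6 were lower (40%), with a median of -0.16. The lower ones include Gli3, the main repressor of the pathway (0.348, 0.472 and 0.512 FPKM in Glioblastoma, 2.01 to 2.96 FPKM elsewhere). Of 33 tested imprinted genes, 11 were higher (33.3%) and 4 were lower (12.1%), near the 27.6% and 13.6% of all tested genes. The median was 0.13. After scaling, 7 to 10 were higher and 5 to 8 were lower. The median turned to -0.0671, -0.183 and -0.0919 after median-of-ratios, common-total and quantile scaling. The maternally expressed RNA H19 had 12.3, 11.2 and 12.1 FPKM in Glioblastoma and 0 to 0.520 FPKM elsewhere. H19 passed the filter on low values only through Glioblastoma, so that its direction was set by it. Airn and Igf2r, which overlap on opposite strands, were both higher, and without strand information their reads cannot be told apart. Of 31 tested interferon and MHC class I genes, 1 was higher (3.23%) and 5 were lower (16.1%), with a median of -0.54. Of 6 tested germline genes, 2 were higher and 2 were lower (33.3% each), with a median of -0.12.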
